A study of Mus musculus with 16 samples.

Results

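The genes described here are 10 of the 55401 quantified in mouse CD8+ T cells, and they make, load and switch on MHC class I. They were chosen by name for their roles, not by measured values: the heavy chain genes H2-K1, H2-D1 and H2-T23, the light chain gene B2m, the peptide transporter genes Tap1 and Tap2, the loading chaperone gene Tapbp, the transactivator gene Nlrc5, and the immunoproteasome genes Psmb8 and Psmb9. All 10 passed the filter on low counts. Poly(A) RNA was sequenced from OT-I T cells, whose transgenic receptor recognises a peptide of ovalbumin on H-2Kb, and which were activated with that peptide and then cultured with IL-2 towards effector cells (TE) or with IL-15 towards memory cells (TM). The 4 groups of 4 libraries each were TPdh-/- TM (libraries 13 to 16), WT TM (9 to 12), TPdh-/- TE (5 to 8) and WT TE (1 to 4). In TPdh-/- mice, a CD4-Cre transgene deletes floxed Pdha1, an X-linked gene that encodes E1 alpha, the catalytic subunit through which pyruvate dehydrogenase takes in pyruvate. CD4-Cre acts in the thymus, so the gene is missing before the CD8+ cells mature, and helper T cells lose it too. Splenic T cells of both sexes of young adult mice were used by the study. Whether WT mice carried the floxed allele or the transgene and the sex of each culture were not given in the sources used here. The study describes its samples as discrete, but the mice it counts per condition outnumber the libraries of a group and the labels tie no library to an animal, so each p measures the spread between these libraries, which may be technical.

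As background, a class I molecule is a heavy chain bound to beta 2 microglobulin and a short peptide, and CD8+ T cells read it on the surface of nearly all nucleated cells, other T cells included. Proteasomes cut proteins into peptides, the TAP transporter carries peptides into the endoplasmic reticulum, and tapasin holds the empty heavy chain at the transporter until a peptide fits. Interferon gamma, acting in part through IRF1, raises most of these genes and swaps catalytic subunits of the proteasome for the immunoproteasome forms. NLRC5 has no DNA-binding domain of its own and works with RFX, CREB or ATF and NF-Y factors that sit on the W, X and Y boxes of class I promoters.

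Bases upstream of H2-K1, H2-D1 and B2m are shown because these genes gave the most abundant transcripts of the set. Each run is the 250 bases before a start site in RefSeq (GRCm38.p6, the build of the files), 5′ to 3′ on the gene's own strand, and H2-K1 has another start site nearby that is not shown. Capitals mark matches to 5 motifs searched on both strands. A kappaB site was searched as GGGNNTTCCC, an interferon-stimulated response element (ISRE) as GAAANNGAAA, and a gamma-activated site (GAS) as TTCNNNGAA. The X2 box was searched as TGACGC. The Y box was searched as CCAAT, which reads in reverse complement where it is inverted.
H2-K1, chr17:34000334-34000583, minus strand: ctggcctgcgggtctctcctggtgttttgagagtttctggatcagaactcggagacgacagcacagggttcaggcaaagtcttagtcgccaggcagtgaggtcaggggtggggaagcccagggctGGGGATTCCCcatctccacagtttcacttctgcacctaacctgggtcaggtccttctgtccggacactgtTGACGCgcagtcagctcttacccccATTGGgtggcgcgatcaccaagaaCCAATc
H2-D1, chr17:35262844-35263093, plus strand: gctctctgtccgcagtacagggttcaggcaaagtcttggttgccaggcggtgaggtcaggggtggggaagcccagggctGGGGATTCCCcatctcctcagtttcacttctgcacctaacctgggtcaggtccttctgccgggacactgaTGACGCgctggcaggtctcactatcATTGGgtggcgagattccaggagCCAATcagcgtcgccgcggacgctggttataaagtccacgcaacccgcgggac
B2m, chr2:122147437-122147686, plus strand: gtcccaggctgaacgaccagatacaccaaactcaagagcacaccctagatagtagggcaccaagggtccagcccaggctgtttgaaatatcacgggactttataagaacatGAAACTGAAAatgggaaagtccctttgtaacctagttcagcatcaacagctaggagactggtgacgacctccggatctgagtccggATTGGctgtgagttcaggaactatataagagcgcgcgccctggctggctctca
The runs of the 2 heavy chain genes matched each other at 177 of 203 aligned bases (87.2%). Both carried a kappaB match, then an X2 match 70 bases on, an inverted CCAAT 25 bases after that and a CCAAT a further 24 bases on in H2-K1 and 23 in H2-D1. The B2m run held an ISRE match starting 139 bases before its start site and an inverted CCAAT 53 bases before it. Only exact letters were searched, so a run without a marked match may still hold a variant of that site. Windows from 250 bases before to 50 after a start site were found for 8 of the 10 genes, with Nlrc5 and Tap2 the others. H2-T23 held an ISRE match at -124 and a CCAAT at -52, Psmb8 a GAS match at -97, Psmb9 an inverted CCAAT at -8, Tap1 a CCAAT at -222, and Tapbp 2 inverted CCAAT matches. Of 32851 such windows of all genes, 1.75% held the kappaB letters, 7.4% the X2 letters, 37.4% CCAAT, 3.44% the ISRE letters and 8.3% the GAS letters. These matches describe letters only, since no binding was measured in these files. Tap1 and Psmb9 are divergent neighbours, and their windows overlap over 275 bases (chr17:34187306-34187580), with start sites at 34187556 for Tap1 and 34187330 for Psmb9. The CCAAT of Tap1 and the inverted CCAAT of Psmb9 are the same bases, read on opposite strands.

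On chromosome 17 of GRCm38, within the MHC, lay 8 of the 10 genes: Tapbp (33915899 to 33929292), H2-K1 (33996017 to 34000347), Psmb9 (34181987 to 34187764), Tap1 (34187553 to 34197225), Psmb8 (34197721 to 34201454), Tap2 (34203527 to 34216321), H2-D1 (35262730 to 35267499) and H2-T23 (36029773 to 36032855). B2m lay on chromosome 2 (122147686 to 122153083) and Nlrc5 on chromosome 8 (94434356 to 94527272). The positions are those of GENCODE M21. Because class I genes resemble each other and the libraries keep no strand, each gene's transcripts were searched for stretches of 150 bases that another gene's transcripts also hold. Such stretches were 0% of those of H2-K1, B2m and Nlrc5, 1.35% for H2-D1, 0.331% for H2-T23, 1.04% for Tap1, 0.565% for Tap2, 4.55% for Psmb8, 1.46% for Psmb9 and 10.1% for Tapbp. Exon positions shared with another gene came to 212 bases between Tap1 and Psmb9, and at most 904 bases for Tapbp (with Gm19412 or Zbtb22), 533 for Tap2, 498 for Psmb8 and 78 for Nlrc5 with a single other gene. Without strand, reads there cannot be given to 1 gene with certainty.

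Each library held 53007257 to 73507566 counts assigned to genes, and the 10 genes were counted between 3850 times (Tap2) and 192993 times (B2m) per library, so counting error was small beside the spread between libraries. Gene-level counts of the targeted gene can include a part of the transcript outside the deletion, so they are a weak check of the labels. The paper states that Pdha mRNA went undetected in TPdh-/- T cells and that PDHA protein was absent. Counts of Pdha1 nevertheless remained in every TPdh-/- library. Reads over single exons were not examined, and the cause was not tested. Pdha1 averaged 153 ± 8.51 CPM in TPdh-/- TM, against 178 ± 11.6 CPM in WT TM (edgeR adjusted p = 0.00556), whereas the TE means were 153 ± 4.21 CPM in TPdh-/- cells and 161 ± 0.787 CPM in WT cells (edgeR adjusted p = 0.285; SD, n = 4 each). CPM here means counts relative to the library total, in the usual unit, after scaling of library sizes with TMM factors. T cell markers were high in every library, with Cd4 below 1 TPM throughout. WT TM library 12 and TPdh-/- TE library 5 stood apart from the other libraries of their groups in an earlier analysis of these files, and results that change without them are given both ways. Differences are log2 values from edgeR, their SE was computed from how log2 CPM varied among libraries of a group, and a gene was called where its p, adjusted by Benjamini-Hochberg over 15277 genes, was below 0.05.

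Set on a per-length scale, B2m was the most abundant of the 10 genes and Tap2 the least. TPM (transcript abundance scaled for gene length and library total) averaged 5839 ± 265 for B2m, 2979 ± 162 for H2-K1, 851 ± 58.1 for H2-D1, 390.3 ± 27.9 for Psmb8, 342.5 ± 40.6 for Nlrc5, 155.4 ± 17.1 for H2-T23, 126.3 ± 11.1 for Psmb9, 93.4 ± 9.03 for Tap1, 93.0 ± 9.92 for Tapbp and 54.8 ± 2.98 for Tap2 in TPdh-/- TM (SD, n = 4). Together the 10 genes summed to 10230 to 11470 TPM in TPdh-/- TM and 8940 to 9473 TPM in WT TM, ranges that did not overlap. In TE these sums were 8238 to 8676 in TPdh-/- and 8052 to 8841 in WT, ranges that did overlap. B2m and H2-K1 made up most of each sum, so it says little of the other genes. Taken singly in TPM, H2-D1, Psmb8, Tap1, Tap2 and Tapbp overlapped between TPdh-/- TM and WT TM. B2m, H2-K1, H2-T23, Nlrc5 and Psmb9 did not. The plot of CPM by library shows each gene in all 16 libraries.

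**Figure D1:**
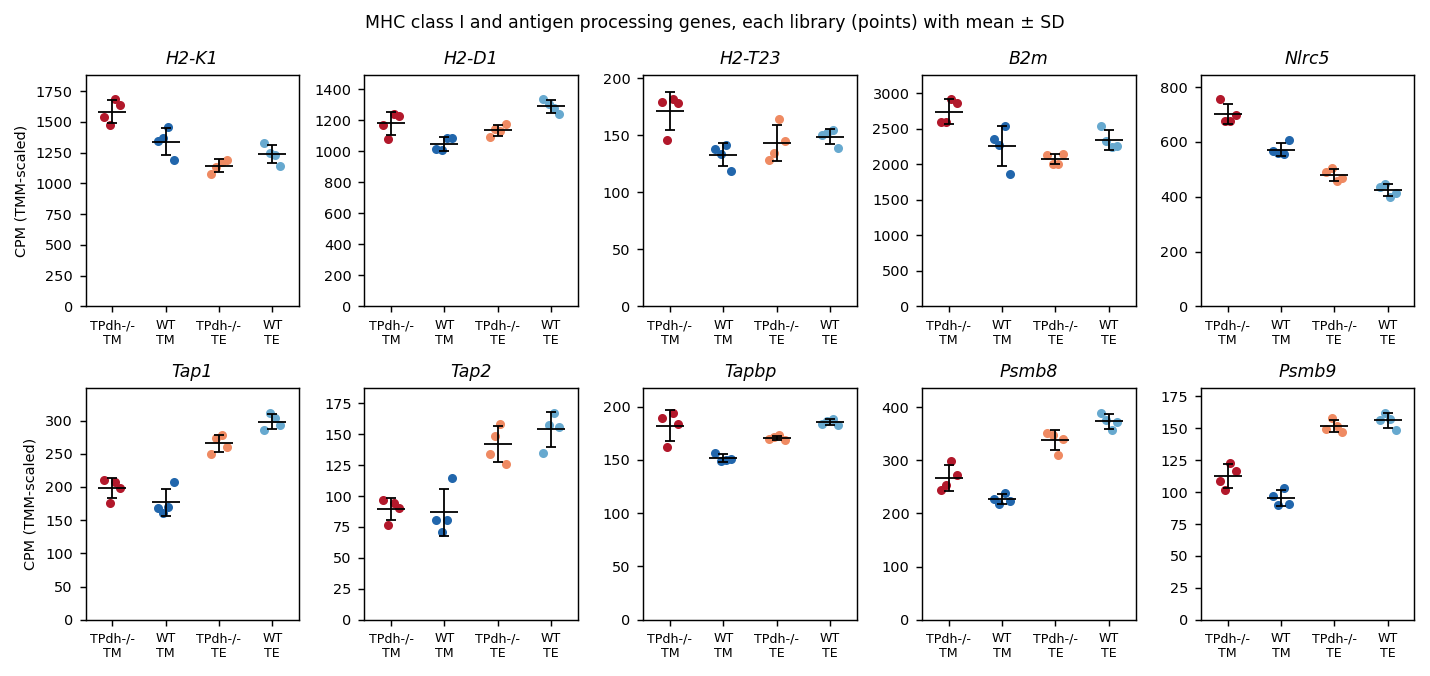
CPM (y axes, linear, each from 0) of the 10 class I and antigen processing genes, with 1 point per library and lines at each group's mean ± SD, for TPdh-/- TM, WT TM, TPdh-/- TE and WT TE (n = 4 each). The TPdh-/- TM points lie above the WT TM points for B2m, H2-K1, H2-T23, Nlrc5, Psmb8 and Tapbp, while Tap1, Tap2, Psmb8 and Psmb9 are highest in TE.

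The first comparison asked what loss of Pdha1 did to class I genes in memory cultures. In TM, 8 of the 10 genes were higher in TPdh-/- than in WT cells and none was lower, with log2 differences of 0.17 to 0.36 among the 8. Over all genes tested, 11.0% were called higher and 7.27% lower. The median of the 10 differences was 0.24, against -0.0048 over all genes tested. For 6 of the 10, every TPdh-/- library lay above every WT library, where 20.8% of all genes tested had groups apart in 1 direction or the other.

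The heavy chains and their partner rose together. H2-K1, whose product H-2Kb presents the ovalbumin peptide to OT-I cells, had 1537, 1474, 1683 and 1636 CPM in TPdh-/- TM, against 1345, 1373, 1456 and 1187 CPM in WT TM. All 4 TPdh-/- libraries lay above all 4 WT libraries, although library 14 exceeded library 11 by little. The log2 difference was 0.24 (SE 0.0756, edgeR adjusted p = 0.0178). B2m, which encodes the light chain that all classical class I molecules need, had 2593, 2595, 2914 and 2869 CPM in TPdh-/- TM, against 2361, 2276, 2534 and 1857 CPM in WT TM. Here too the groups did not overlap, and WT library 12 was the lowest by far. B2m was 1.22 times the WT level (log2 difference 0.28, SE 0.106, edgeR adjusted p = 0.0185).

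H2-D1, which encodes the other classical heavy chain of this strain, H-2Db, had 1169, 1083, 1243 and 1227 CPM in TPdh-/- TM, against 1015, 1007, 1084 and 1088 CPM in WT TM. The groups overlapped, because library 14 fell just under WT libraries 11 and 12. Its log2 difference of 0.17 (SE 0.0539) was the smallest of those called (edgeR adjusted p = 0.0297), and it was no longer called when library 9, 10, 15 or 16 was left out (edgeR adjusted p from 0.0757 to 0.0842). H2-T23 encodes Qa-1, a nonclassical molecule that shows a leader peptide of other class I chains to NKG2A receptors. It had 178.7, 146.0, 181.4 and 178.1 CPM in TPdh-/- TM, against 137.9, 133.1, 141.7 and 118.7 CPM in WT TM. Library 14 again stood below its group, yet above all 4 WT libraries. H2-T23 showed the largest difference of the 10 genes, a log2 value of 0.36 (SE 0.0933, edgeR adjusted p = 0.00449).

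Nlrc5, the transactivator of class I genes, rose as well. It had 755.1, 676.0, 677.1 and 696.4 CPM in TPdh-/- TM, against 568.3, 558.4, 554.4 and 605.7 CPM in WT TM. The lowest TPdh-/- library lay well above the highest WT library. The log2 difference was 0.29 (SE 0.0474), with the smallest adjusted p of the 10 genes (edgeR adjusted p = 0.000945).

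Of the transport and loading genes, tapasin was called and the TAP subunits were not. Tapbp had 189.7, 161.7, 194.4 and 183.3 CPM in TPdh-/- TM, against 156.9, 148.7, 150.2 and 151.1 CPM in WT TM, with no overlap (log2 difference 0.26, SE 0.0614, edgeR adjusted p = 0.00114). Tap1 had 211.1, 176.5, 207.4 and 198.3 CPM in TPdh-/- TM, against 168.8, 161.4, 169.4 and 207.2 CPM in WT TM. Library 12 stood among the TPdh-/- values, whereas the other WT libraries lay below all of them. With all libraries the log2 difference of Tap1 was 0.17 (SE 0.0993, edgeR adjusted p = 0.129), and without library 12 it was 0.25 (edgeR adjusted p = 0.00864). Tap2 had 96.4, 76.4, 94.5 and 90.3 CPM in TPdh-/- TM, against 80.6, 71.3, 80.6 and 114.7 CPM in WT TM. The highest value of all 8 was that of WT library 12, and the log2 difference was 0.04 (SE 0.166, edgeR adjusted p = 0.85).

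Both immunoproteasome subunits rose. Psmb8, the LMP7 subunit that replaces PSMB5, had 243.6, 253.4, 299.1 and 271.3 CPM in TPdh-/- TM, against 227.4, 218.1, 238.6 and 224.1 CPM in WT TM. The groups did not overlap, and the log2 difference was 0.23 (SE 0.0703, edgeR adjusted p = 0.0135). Psmb9, the LMP2 subunit that replaces PSMB6, had 108.9, 102.0, 123.2 and 116.8 CPM in TPdh-/- TM, against 97.0, 89.7, 103.5 and 91.0 CPM in WT TM. Only library 14 lay below a WT library, and the log2 difference was 0.24 (SE 0.076, edgeR adjusted p = 0.0085).

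Some libraries stood at 1 end of their group for many of these genes and others did not. Among TPdh-/- TM, library 15 was the highest of the 4 for 7 genes and library 14 the lowest for 8. Among WT TM, library 10 was the lowest for 6 genes, and library 12 was the highest for 4 and the lowest for 3. Mixed ranks were also found in TE, where libraries 7 and 8 of TPdh-/- were the highest for 4 and 3 genes and each the lowest for 3. Library 4 of WT TE was the lowest for 5 genes and was the highest for 0. Fitting TM libraries alone kept 5 of the 8 calls, those of H2-T23, Tapbp, Nlrc5, Psmb8 and Psmb9. On log2(TPM + 1) values, limma called 5 as well, but not the same ones: H2-D1 (adjusted p = 0.296), Tapbp (adjusted p = 0.08) and Psmb8 (adjusted p = 0.174) lost their calls, while H2-K1 and B2m kept theirs. Over all genes tested, calls in TM also fell, from 2796 to 2023 with TM libraries alone and to 1637 with limma on log2(TPM + 1).

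**Figure D2:**
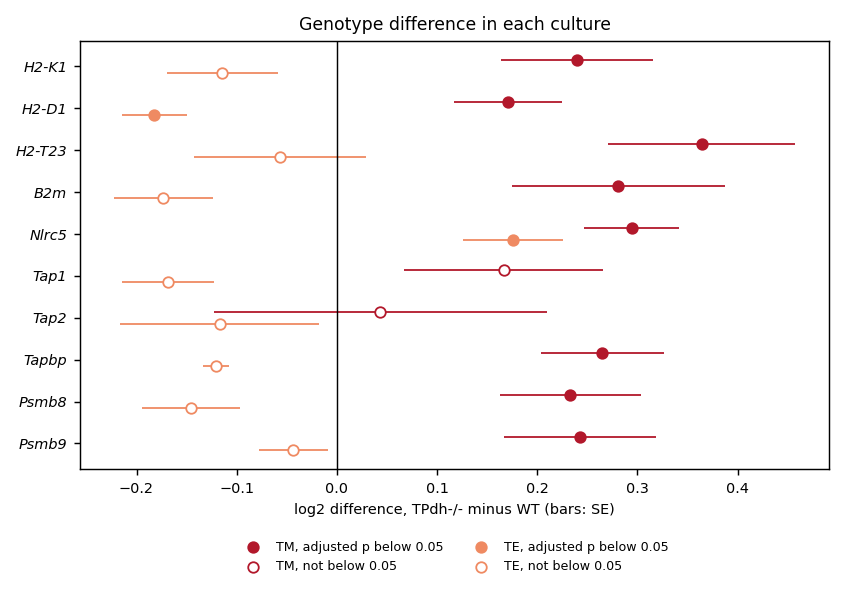
Log2 difference, TPdh-/- over WT, of each of the 10 genes in TM and in TE (x axis; bars are 1 SE of log2 CPM, n = 4 against 4), with filled points for edgeR adjusted p below 0.05. In TM all 10 points lie above 0 and 8 are filled. In TE 9 lie below 0, and the filled points are those of H2-D1 at -0.18 and Nlrc5 at 0.18.

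The same question in effector cultures gave a different picture. In TE, H2-D1 was lower and Nlrc5 higher in TPdh-/- cells, and the other 8 genes were not called, with log2 differences from -0.17 to -0.04. Over all genes tested, 17.3% were called higher and 14.3% lower. The median of the 10 differences was -0.12, against -0.000252 over all genes tested.

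H2-D1 had 1092, 1148, 1134 and 1176 CPM in TPdh-/- TE, against 1336, 1309, 1279 and 1239 CPM in WT TE. Every TPdh-/- library lay below every WT library, and the log2 difference was -0.18 (SE 0.0322, edgeR adjusted p = 0.0133). H2-K1, 1075, 1134, 1176 and 1190 CPM in TPdh-/- TE against 1330, 1247, 1232 and 1144 CPM in WT TE, differed by -0.11 (SE 0.0554, edgeR adjusted p = 0.208). WT library 4 lay among the TPdh-/- values there. H2-T23 had 128.1, 134.5, 164.6 and 145.0 CPM in TPdh-/- TE, against 150.3, 152.0, 154.2 and 138.7 CPM in WT TE. Library 7 was the highest of all 8, and the log2 difference was -0.06 (SE 0.0859, edgeR adjusted p = 0.64).

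B2m had 2134, 2010, 2008 and 2141 CPM in TPdh-/- TE, against 2538, 2322, 2238 and 2253 CPM in WT TE. The groups did not overlap, but the log2 difference of -0.17 was not called (SE 0.0492, edgeR adjusted p = 0.103). Nlrc5 was higher in TPdh-/- TE, with 488.8, 506.3, 456.3 and 467.8 CPM in TPdh-/- TE, against 436.3, 448.2, 399.4 and 414.7 CPM in WT TE. No TPdh-/- library fell below a WT library, and the log2 difference was 0.18 (SE 0.0499, edgeR adjusted p = 0.0201). Leaving out library 3 or 4 of WT TE, or library 6 of TPdh-/- TE, ended that call (edgeR adjusted p from 0.0751 to 0.0998). The call was also lost with no filter on low counts (0.16, edgeR adjusted p = 0.0825). It was lost as well with limma on TPM rescaled by TMM factors (0.10, adjusted p = 0.278).

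The processing genes were near or just below their WT levels in TE. Tap1 had 249.8 to 278.4 CPM in TPdh-/- TE and 285.3 to 312.0 CPM in WT TE, Tapbp 169.0 to 173.0 CPM in TPdh-/- TE and 182.9 to 188.8 CPM in WT TE, and Psmb8 309.7 to 351.5 CPM in TPdh-/- TE and 356.6 to 389.4 CPM in WT TE. None of these ranges overlapped, and none of the differences was called (edgeR adjusted p from 0.0756 to 0.0906). With H2-D1, B2m and Nlrc5, the groups were apart for 6 of the 10 genes, where 33.1% of all genes tested had groups apart. Tap2 and Psmb9 overlapped, with log2 differences of -0.12 (SE 0.0994) and -0.04 (SE 0.0342). The count of calls in TE ran from 1 to 5 when 1 library was left out: it was 1 without library 3, 4 or 6, 4 without library 15, and 5 without library 12, which then included B2m, Tap1 and Tapbp as lower. Over all genes tested, calls in TE numbered 4823 with all libraries, 4051 without library 6 and 5507 without library 12.

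Whether the genotype effect differed between the cultures was tested by the interaction, the effect in TM minus that in TE. It was called as higher in TM for 8 of the 10 genes, against 8.05% of all genes tested, and as lower for none, against 7.51%. The values were 0.45 for B2m (SE 0.117, edgeR adjusted p = 0.00951), 0.42 for H2-T23 (SE 0.127, edgeR adjusted p = 0.0195), 0.39 for Tapbp (SE 0.0628, edgeR adjusted p = 0.00124) and 0.38 for Psmb8 (SE 0.0856, edgeR adjusted p = 0.00653). H2-K1 and H2-D1 both gave 0.35 (edgeR adjusted p = 0.016 and 0.00347), Tap1 gave 0.34 (edgeR adjusted p = 0.0364) and Psmb9 0.29 (edgeR adjusted p = 0.028). The genes not called were Nlrc5, higher in TPdh-/- cells of both cultures (interaction 0.12, SE 0.0689, edgeR adjusted p = 0.33), and Tap2 (0.16, SE 0.194, edgeR adjusted p = 0.578). Tap1 lost its call when any 1 of 10 libraries was left out (edgeR adjusted p from 0.0515 to 0.0736), and Psmb9 without WT TM library 10. Without libraries 5 and 12 together, 6 calls were left, those of H2-T23 and Psmb9 being lost (edgeR adjusted p = 0.0582 and 0.0656).

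The scaling of the libraries bears on TE and on the interaction. On log2(TPM + 1) values the median of all genes moved to 0.0921 in the TE comparison, to 0.117 in TM against TE in WT, and to -0.123 in the interaction. The share of calls that were higher was then 84.0% in TE and 18.6% in the interaction, against 54.8% and 51.7% on counts. In TM against TE in WT it was 65.6%, whereas counts gave 5243 higher and 5236 lower calls. On that scale H2-K1, H2-T23, Tap2, Tapbp and Psmb9 lay 0.02 to 0.09 above 0 in TE, which is below the median of all genes, and 1 interaction call was left, that of B2m. With TPM rescaled by TMM factors the interaction was called for 7 of the 10 genes.

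The next comparisons set memory against effector cultures within each genotype. In WT cells, TM libraries had less RNA for the genes that cut, carry and load peptides and for H2-D1: 6 genes were lower and 1 higher, where 34.3% of all genes tested were called in each direction. Tap2 differed by -0.83 (SE 0.162), Tap1 by -0.76 (SE 0.0854), Psmb8 by -0.72 (SE 0.0376) and Psmb9 by -0.71 (SE 0.054), that is 0.564 to 0.61 times the TE level, with edgeR adjusted p of 1.04e-05 or less. Tapbp (-0.29, SE 0.0201) and H2-D1 (-0.30, SE 0.0378) were the other genes called lower. With limma on log2(TPM + 1) neither was called, at -0.08 for Tapbp (adjusted p = 0.325) and -0.03 for H2-D1 (adjusted p = 0.736). Nlrc5, in contrast, was higher in WT TM, at 554.4 to 605.7 CPM against 399.4 to 448.2 CPM in WT TE (log2 difference 0.43, SE 0.0472, edgeR adjusted p = 2.01e-06). H2-K1, B2m and H2-T23 differed by 0.11, -0.05 and -0.16 and were not called (edgeR adjusted p = 0.135, 0.579 and 0.0852). Without library 12, H2-K1 was called (0.16, edgeR adjusted p = 0.0244) and B2m lay at 0.03, on the other side of 0. With all libraries, limma called H2-K1 higher in WT TM on log2(TPM + 1) values (0.44, adjusted p = 3.14e-05). It did so too on TPM rescaled by TMM factors (0.26, adjusted p = 0.0101). On that rescaled TPM H2-T23 was called lower (-0.21, limma adjusted p = 0.0379). H2-T23 was also called lower with the WT groups alone (edgeR adjusted p = 0.0316) and without library 7 or 14 (edgeR adjusted p = 0.0462 and 0.0472).

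In TPdh-/- cells the same comparison called 4 genes higher and 4 lower, where 33.0% of all genes tested were called higher and 34.7% lower. Higher in TM were Nlrc5 by 0.55 (SE 0.0502), H2-K1 by 0.47 (SE 0.0543), B2m by 0.40 (SE 0.0523) and H2-T23 by 0.26 (SE 0.108), with edgeR adjusted p from 1.22e-07 to 0.00994. Lower in TM were Tap2 at -0.67 (SE 0.106), Psmb9 at -0.43 (SE 0.0635), Tap1 at -0.42 (SE 0.0682) and Psmb8 at -0.34 (SE 0.0769), with edgeR adjusted p of 0.000114 or less. H2-D1 (0.05) and Tapbp (0.09) were not called, and Tapbp was called higher without TPdh-/- TM library 14 (0.16, edgeR adjusted p = 0.00406). Because each group enters 2 of these comparisons, the 4 sets of differences are not independent.

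**Figure D3:**
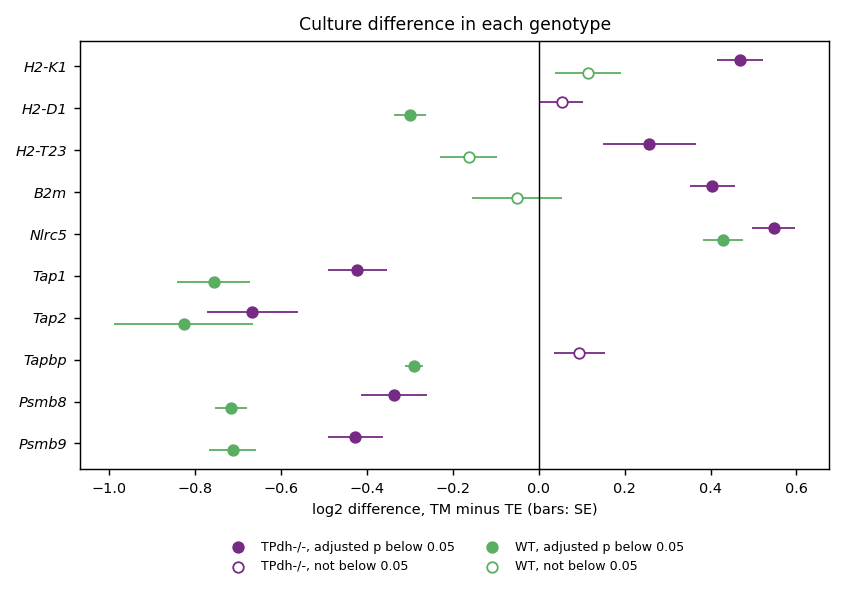
Log2 difference, TM over TE, of each of the 10 genes in TPdh-/- and in WT cells (x axis; bars are 1 SE of log2 CPM, n = 4 against 4), with filled points for edgeR adjusted p below 0.05. Tap1, Tap2, Psmb8 and Psmb9 lie left of 0 in both genotypes, Nlrc5 lies right of 0 in both, and the TPdh-/- point lies right of the WT point for every gene.

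The order of the groups by mean CPM differed between genes. Nlrc5 averaged 701.1 CPM in TPdh-/- TM, 571.7 CPM in WT TM, 479.8 CPM in TPdh-/- TE and 424.7 CPM in WT TE. Both neighbour pairs that were tested, the genotypes within each culture, were called with all libraries and counts, but the TE call was lost in some other settings. Tap1, Tap2, Psmb8 and Psmb9 were highest in WT TE, then in TPdh-/- TE, TPdh-/- TM and WT TM, and neighbours within TE did not differ beyond the test. H2-K1, B2m and H2-T23 were highest in TPdh-/- TM and did not share an order of the other 3 groups. With all libraries and counts, none of the 3 was called between WT TM and WT TE or between TPdh-/- TE and WT TE. Other settings did call some of these pairs, for example H2-K1 in WT and B2m in TE without library 12, and TPdh-/- TE and WT TM had no direct test. H2-D1 and Tapbp were highest in WT TE and lowest in WT TM, at 1291 and 1048 CPM for H2-D1 and 185.6 and 151.7 CPM for Tapbp.

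Ratios within a library do not depend on its scaling. In TPM, H2-K1 exceeded H2-D1 by 3.38, 3.59, 3.57 and 3.47 times in TPdh-/- TM and by 3.39, 3.44, 3.42 and 2.79 times in WT TM, against 2.46, 2.43, 2.56 and 2.63 times in TPdh-/- TE and 2.54, 2.26, 2.30 and 2.29 times in WT TE. TM libraries thus carried the higher ratio in both genotypes with no overlap, at log2 differences of 0.48 in TPdh-/- (SE 0.0336) and 0.47 in WT (SE 0.0831). Each had an exact permutation p of 0.0286, the smallest that 4 against 4 libraries can give, and an adjusted value of 0.1 over the 28 ratio tests made, none of which passed. The size of the H2-K1 to H2-D1 ratio depends on the length scaling in TPM. Mean CPM was 1582 for H2-K1 and 1180 for H2-D1 in TPdh-/- TM, and 1238 and 1291 in WT TE. The sum of H2-K1 and H2-D1 over B2m averaged 0.656 ± 0.0215 in TPdh-/- TM and 0.698 ± 0.0691 in WT TM (SD, n = 4 each), a log2 difference of -0.09 (SE 0.0726, exact permutation p = 0.229), and the groups overlapped. In WT cells that ratio did not overlap between the cultures, at 0.653 to 0.799 in WT TM, against 0.592 to 0.618 in WT TE (0.20, SE 0.0701, exact permutation p = 0.0286, adjusted 0.1). Taken from counts, the log2 difference was -0.0239.

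The immunoproteasome subunits can be set against the constitutive ones they replace. Psmb9 over Psmb6 was 0.967, 0.826, 0.801 and 0.921 in TPdh-/- TM, against 0.685, 0.731, 0.670 and 0.638 in WT TM. The groups did not overlap, and the log2 difference was 0.37 (SE 0.0762, exact permutation p = 0.0286, adjusted 0.1). Psmb8 over Psmb5 was 5.42, 4.77, 5.02 and 5.38 in TPdh-/- TM, against 4.2, 4.03, 3.99 and 5.26 in WT TM, where library 12 alone reached the TPdh-/- values (0.24, SE 0.103, exact permutation p = 0.0857). In TE that ratio was lower in TPdh-/-, at 4.77, 4.83, 4.74 and 5.13 against 5.56, 5.23, 5.13 and 5.59 in WT (-0.14, SE 0.0406, exact permutation p = 0.0286, adjusted 0.1). Psmb10 over Psmb7, the ratio for MECL-1, averaged 0.728 ± 0.0977 in TPdh-/- TM and 0.599 ± 0.0805 in WT TM (SD, n = 4 each; exact permutation p = 0.114). Psme1 over Psme3, subunits of 2 different proteasome activators, averaged 3.62 ± 0.325 in TPdh-/- TM and 2.77 ± 0.368 in WT TM with no overlap (0.39, SE 0.114, exact permutation p = 0.0286, adjusted 0.1). Tap1 over Tap2 kept between 1.44 and 1.79 in all 16 libraries.

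**Figure D4:**
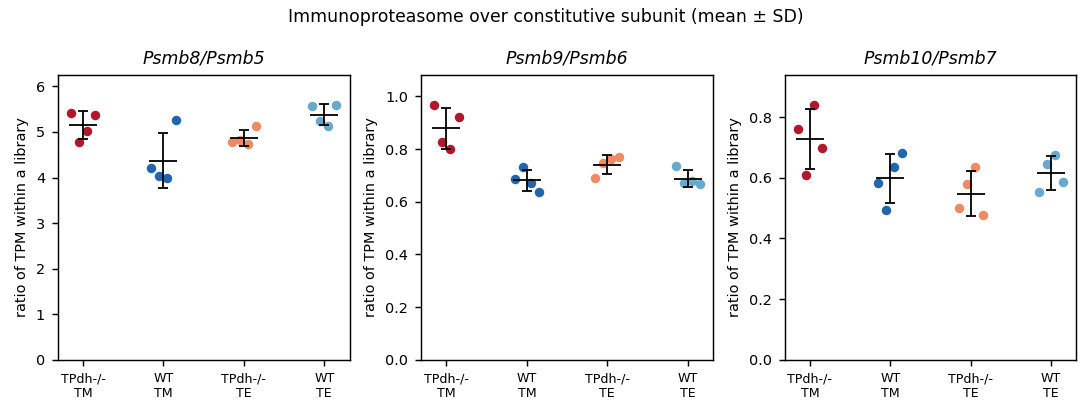
Ratio of TPM within each library (y axes, linear, from 0) for Psmb8 over Psmb5, Psmb9 over Psmb6 and Psmb10 over Psmb7, with 1 point per library and lines at each group's mean ± SD (n = 4). Psmb9 over Psmb6 lies between 0.801 and 0.967 in TPdh-/- TM and between 0.638 and 0.731 in WT TM, while the other ratios overlap between these groups.

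Other genes of the pathway were read from 6 lists. In TM, 5 of the 11 other class I and class I-like genes tested (15 listed) rose in TPdh-/- cells and none fell, with a median of 0.24. They were H2-Q4 (0.35, SE 0.0497, edgeR adjusted p = 0.000667), H2-Q6 (0.36, SE 0.0657, edgeR adjusted p = 0.00124), H2-Q10 (0.44), H2-Q7 (0.26) and H2-T22 (0.24). H2-Q7 encodes Qa-2, and averaged 937 ± 57.7 CPM in TPdh-/- TM, against 783 ± 10.4 CPM in WT TM (SD, n = 4 each). Shared stretches were 3.43% to 9.87% for the Q genes named and 22.3% for H2-T22, so their counts are less certain than those of H2-K1. In TE, H2-Q6 was lower by -0.37 (SE 0.0774, edgeR adjusted p = 0.000566), Cd1d1 by -0.19 and H2-T10 by -0.14, and H2-M3 was higher by 0.18. The interaction was called for 4 of these 11 genes, H2-Q4, H2-Q6, H2-Q7 and H2-T22, with 0.74 for H2-Q6 as the largest.

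Of 11 genes for loading and trimming, 2 were higher in TPdh-/- TM: Pdia3, which encodes the disulfide isomerase of the loading complex (0.23, SE 0.0707, edgeR adjusted p = 0.0304), and Tapbpl, which encodes the peptide editor TAPBPR (0.22, SE 0.0702, edgeR adjusted p = 0.0368). Tapbpl was lower in TPdh-/- TE, at 63.6 ± 4.78 CPM against 84.4 ± 6.58 CPM in WT TE (-0.41, SE 0.0793, edgeR adjusted p = 0.000315), and its interaction was 0.63. No immunoproteasome or activator subunit on its list of 6 was called in TM, at an edgeR adjusted p below 0.05. Psme2 gave 0.28 (edgeR adjusted p = 0.0516), Psmb10 0.32 (edgeR adjusted p = 0.058) and Psme1 0.19 (edgeR adjusted p = 0.0668). Of the 14 constitutive proteasome genes none was called in TM, with Psmb5 at -0.07, Psmb6 at -0.13 and Psmb7 at 0.05, and 1, Psma3, in TE (0.27). All 14 were called lower in TM than in TE in both genotypes, where 34.7% of all genes tested were in TPdh-/- and 34.3% in WT. Their medians were -0.47 in TPdh-/- and -0.57 in WT, beside -0.42 in TPdh-/- and -0.35 in WT for the 11 loading genes. In WT the 14 differences ran from -0.74 (Psmb2) to -0.30 (Psma6), so the lower levels of Psmb8 (-0.72) and Psmb9 (-0.71) lay within the range of constitutive genes.

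Among 14 transcription factors of class I genes, 3 rose in TPdh-/- TM and none fell. Irf1 had 307.7, 258.5, 291.0 and 329.3 CPM in TPdh-/- TM, against 156.3, 158.2, 160.8 and 163.7 CPM in WT TM (0.89, SE 0.0753, edgeR adjusted p = 1.94e-07). The groups did not overlap, and the difference was larger than that of any of the 10 genes. Within TPdh-/- TM, Irf1 was lowest in library 14 and highest in library 16. A part of Irf1 in the class I differences was not tested. Irf8 (1.10) and Ciita (1.40), the class II transactivator gene, were the other factors called. The RFX, CREB, ATF and NF-Y genes were not called in TM, and in TE Creb1 (-0.32), Rfxap (-0.29) and Nfyc (-0.20) were lower in TPdh-/- cells. Irf1 was not called in TE, at -0.15 (edgeR adjusted p = 0.111), and its interaction was 1.04 (edgeR adjusted p = 3.06e-06).

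Of 8 genes of interferon gamma signalling, 3 rose in TPdh-/- TM. Ifng, the gene of the cytokine itself, had 8.84, 8.69, 11.0 and 11.2 CPM in TPdh-/- TM, against 4.45, 3.5, 5.92 and 4.85 CPM in WT TM, with no overlap (1.08, SE 0.184, edgeR adjusted p = 0.000888). In TE it had 3.03 to 7.27 CPM in TPdh-/- cells and 3.29 to 4.12 CPM in WT cells and was not called (0.46, edgeR adjusted p = 0.0948), and the interaction was not called either (0.63, edgeR adjusted p = 0.149). The receptor genes Ifngr2 (0.44) and Ifngr1 (0.18) were also higher in TM. In TE, Ifngr2 (0.97) and the feedback inhibitor genes Socs1 (0.78) and Socs3 (0.48) were higher and the kinase gene Jak1 lower (-0.56) in TPdh-/- cells. The shares called over all genes tested, 11.0% higher and 7.27% lower in TM, apply to these lists too.

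**Figure D5:**
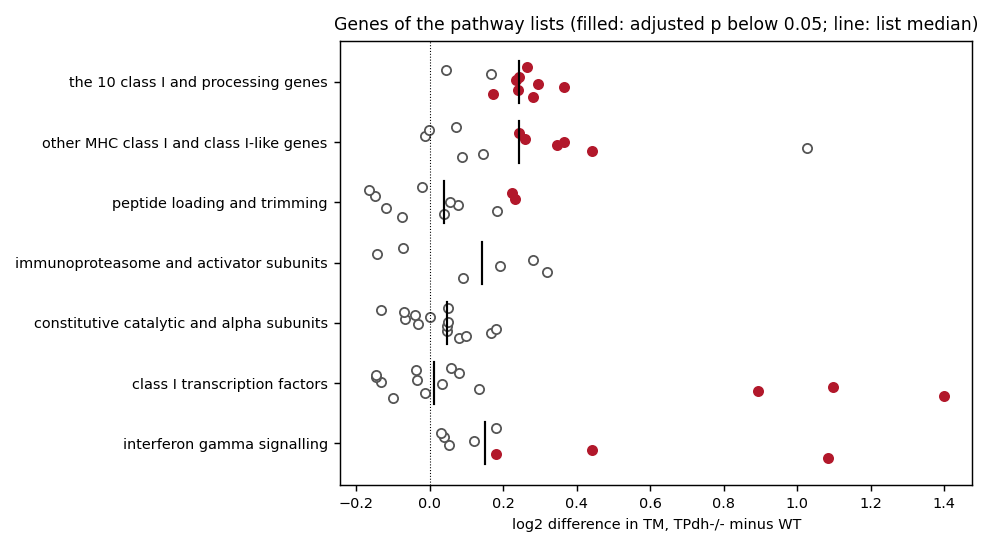
Log2 difference, TPdh-/- TM over WT TM, of every tested gene of the 10 class I and processing genes and of the 6 lists (x axis), with 1 point per gene, filled where the edgeR adjusted p is below 0.05, and a bar at each list's median. The median is 0.24 for the 10 genes and for the other class I genes and 0.05 for the constitutive proteasome genes.

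Markers of other cell types moved with the genotype in TM. Summed over 6 NK cell markers, TPM was 78.1 to 113.0 in TPdh-/- TM and 26.8 to 38.2 in WT TM. Tyrobp was the most abundant of them in TPdh-/- TM (31.7 to 52.1 TPM) and the defining genes Ncr1, Klra8 and Klra4 were below 1 TPM in every library of the other groups. The 6 macrophage and monocyte markers summed to 22.1 to 36.4 TPM in TPdh-/- TM and 5.49 to 6.41 TPM in WT TM, with Csf1r, Adgre1 and Cd14 below 1 TPM in all 16 libraries. The 5 dendritic cell markers summed to 7.29 to 15.1 TPM in TPdh-/- TM and 1.01 to 1.72 TPM in WT TM, mostly Itgax, with Flt3, Zbtb46, Xcr1 and Siglech below 1 TPM in both groups. The 4 class II genes summed to 49.0 to 184.0 TPM in TPdh-/- TM and 14.7 to 53.9 TPM in WT TM, with no marker at 0 in all libraries of either group. The 5 B cell markers summed to 8.83 to 38.5 TPM in TPdh-/- TM and 10.1 to 20.3 TPM in WT TM, and the 5 plasma cell markers to 442.0 to 623.0 TPM in TPdh-/- TM and 378.0 to 465.0 TPM in WT TM. The plasma cell sum was mostly Ighm, at 342 to 424 TPM in TPdh-/- TM and 334 to 427 TPM in WT TM. Ighm was not called (0.01), nor were Xbp1 and Sdc1. Igkc had 45.4 to 156 TPM in TPdh-/- TM and 6.32 to 24 TPM in WT TM. It was called higher (2.73, edgeR adjusted p = 0.0013), as was Jchain (2.14). The 6 T cell markers summed to 2380 to 2620 TPM in TPdh-/- TM, against 3210 to 3390 TPM in WT TM. Called lower in TPdh-/- TM were Cd8b1 (-0.69), Cd8a (-0.62), Trac (-0.60) and Cd3e (-0.18). Cd3g was level (-0.0017, edgeR adjusted p = 0.995), and Cd4, below 1 TPM, was called higher (1.33, edgeR adjusted p = 0.0219). In TE the T cell sums were 1840 to 2060 TPM in TPdh-/- and 2470 to 2690 TPM in WT cells. The NK cell sums were 32.4 to 42.1 TPM in TPdh-/- and 42.1 to 54.8 TPM in WT cells, mostly Eomes, which effector T cells also express, at 22.2 to 35 TPM in TPdh-/- and 38.2 to 50.5 TPM in WT. Tyrobp was called higher in TPdh-/- TE, at 4.01 to 8.14 TPM in TPdh-/- and 2.08 to 2.49 TPM in WT, and Ncr1, Klra8 and Klra4, all below 1 TPM, were also called higher in TPdh-/- TE. The macrophage sums were 14.1 to 23.4 TPM in TPdh-/- TE and 10.1 to 13.7 TPM in WT TE, and the class II sums 25.8 to 69.8 TPM in TPdh-/- TE and 12.6 to 25 TPM in WT TE. Lyz2 (2.09) and Cd68 (0.39) were called higher in TPdh-/- TE, as were Csf1r and Adgre1. Itgam was called lower there (-1.18, edgeR adjusted p = 0.00301). Of the class II genes, Cd74 (2.91), H2-Eb1 (2.50) and H2-Aa (2.40) were called higher. H2-Ab1 lay at -0.65 and was not called (edgeR adjusted p = 0.134). The dendritic cell sums were 1.82 to 4.57 TPM in TPdh-/- TE and 5.2 to 6.57 TPM in WT TE, the plasma cell sums 497.0 to 558.0 TPM in TPdh-/- TE and 431.0 to 456.0 TPM in WT TE, and the B cell sums 8.0 to 9.82 TPM in TPdh-/- TE and 6.84 to 7.81 TPM in WT TE. Among the dendritic cell markers, Xcr1 was called lower in TPdh-/- TE (-1.67) and Zbtb46, below 1 TPM, higher (1.69). Ighm, again most of the plasma cell sum, was not called in TE, whereas Igkc (2.50), Jchain (2.41) and Xbp1 (0.48) were called higher. In bulk RNA a change in the share of cells and a change in RNA per cell cannot be told apart, and the part of these cells in the class I differences was not tested.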

How the data were processed

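Poly(A) libraries, unstranded by their kit, were read on an Illumina NovaSeq. The submitters' processing notes name STAR 2.7.6a for alignment to the GRCm38 build (mm10), RSEM 1.3.3 for quantification, and DESeq2. The annotation release was not given in the sources used here. The authors deposited expected counts per gene and library, which RSEM estimates and which need not be whole (6.93% to 7.6% of values were not), and TPM, which the authors scaled for length and library total. Deposited FPKM were not used.

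Of 55401 genes, 55141 were matched by identifier to GENCODE M21. Expected counts were rounded and filtered with filterByExpr (minimum count 10, minimum total 15), and 15277 genes were fitted in edgeR 4.0.16 (R 4.3.3) with TMM factors, 1 mean per group and all 16 libraries. A quasi-likelihood test was made for 5 contrasts. Library numbers come from the labels. Chi-square per degree of freedom between libraries of a group was 8.11 to 70.3 over 24 pairs, so no library repeated another within counting error. Ratios of TPM were compared by exact 2-sided permutation tests. Alternatives were DESeq2 1.42.0, RLE factors, no filter, limma 3.58.1 on log2(TPM + 1), fits of 2 groups, and leaving libraries out; limma on log2 CPM and on rescaled TPM were added after the data had been seen. Scripts were tested on simulated data. Named were all 10 genes, Pdha1, Ifng, Irf1 and 4 proteasome subunits, and up to 4 genes per list with the smallest adjusted p and comparison. H2-T22 in TM was named after its values were seen. 1 gene of the lists is not reported here. The genes and lists were chosen with earlier results of these data known. Promoter windows are RefSeq, GRCm38.p6.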

Additional observations from a re-analysis of the deposited data

Results flagged for a closer look

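In 4 of 68 groups of 4 libraries, 1 library lay far from the other 3, where chance gives about 1 in 20. H2-T23 had 146.0 CPM in TPdh-/- TM library 14, against 178.1 to 181.4 CPM in the other libraries of its group. The TPM ratio of H2-K1 to H2-D1 was 2.79 in WT TM library 12, where the others had 3.39 to 3.44, and 2.54 in WT TE library 1, where the others had 2.26 to 2.30. The ratio of Psmb8 to Psmb5 was 5.26 in WT TM library 12, where the others had 3.99 to 4.2.

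The genotype effect in TM exceeded that in TE, tested as an interaction in edgeR, by a log2 value of 0.45 for B2m, 0.35 for H2-D1, 0.35 for H2-K1, 0.42 for H2-T23, 0.38 for Psmb8, 0.29 for Psmb9, 0.34 for Tap1 and 0.39 for Tapbp.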

How the results depend on the processing

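No paired analysis was possible because the labels number the libraries from 1 to 16 and no number is shared between groups. In TM the count of calls was 5 with limma on log2(TPM + 1), 5 with rescaled TPM and 5 with the TM groups alone. In TE it was 4 with DESeq2, 1 with no filter, 1 with limma on log2(TPM + 1), 1 with rescaled TPM and 5 with the TE groups alone, and it ran from 1 to 5 when 1 library was left out. Calls over all genes tested moved too. In TM they numbered 2796 in the main fit, 1637 with limma on log2(TPM + 1), 1920 with rescaled TPM and 2023 with the TM groups alone. In TE they numbered 4823 in the main fit, 5142 with DESeq2 and 4548 with no filter. They were 4300 there with limma on log2(TPM + 1), 3960 with rescaled TPM and 4866 with the TE groups alone. The interaction count was 1 with limma on log2(TPM + 1). When 1 library was left out, counts ran from 7 to 9 in TM, 6 to 8 for the interaction, 8 to 9 for TM against TE in TPdh-/- and 7 to 8 in WT. Without libraries 5 and 12 the counts were 9 in TM, 3 in TE and 6 for the interaction.

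Some uncalled differences changed sign. Tap2 in TM ran from -0.041 to 0.21 when 1 library was left out. With limma on log2(TPM + 1), TE values were 0.0733 for H2-K1, 0.0701 for H2-T23, 0.0829 for Tap2, 0.0222 for Tapbp and 0.0855 for Psmb9. B2m in TM against TE in WT was 0.12 on that scale and 0.0323 without libraries 5 and 12, and ran from -0.12 to 0.0272 when 1 library was left out. Taken from counts, the log2 difference between TM and TE was -0.0239 in WT and -0.13 in TPdh-/- for the ratio of H2-K1 plus H2-D1 to B2m, and in WT 0.00303 for Psmb9 to Psmb6 and 0.0832 for Tap1 to Tap2. When 1 library was left out, TM against TE in TPdh-/- ran from -0.0818 to 0.0808 for Psme1 to Psme3 and from -0.00296 to 0.068 for H2-K1 plus H2-D1 to B2m. In WT it ran from -0.11 to 0.0455 for Psmb10 to Psmb7, -0.0667 to 0.0135 for Tap1 to Tap2 and -0.0502 to 0.0182 for Psmb9 to Psmb6, and Tap1 to Tap2 in TM ran from -0.00436 to 0.0758. The cause was not tested. Over all settings for single genes, 1114 kept direction and call, 43 lost a call, 24 gained one and 9 changed sign. Spread between libraries, not depth, limits these abundant genes.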
